A study of Mus musculus with 21 samples.

Results

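The genes described here are 5 fibroblast growth factor ligands, Fgf3, Fgf4, Fgf8, Fgf15 and Fgf17, of 18193 genes that had a probe set with 1 gene symbol on the array. They were chosen by name as the Fgf ligands of the caudal end of the embryo, and the question was where along the presomitic mesoderm (PSM) each of them ends. The PSM is the unsegmented tissue beside the caudal neural tube from which somites form. It was dissected from CD-1 mice, an outbred stock with no engineered allele named in the labels, staged as embryonic day 8.5 in the labels, while their dissection protocol gives 9.0 days post-coitus. After 1 min in pancreatin at 2 mg/ml, which all samples received, ectoderm, endoderm and lateral plate were removed and the PSM was divided into 7 parts, each with 3 arrays, 21 in all. Per the design text, both sides of 1 embryo and a set from another embryo were used, so some arrays share an embryo. A p-value here therefore reflects the spread among arrays, not that among independent embryos.

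Fgf ligands are secreted proteins that bind receptor tyrosine kinases at the cell surface together with heparan sulphate and switch on the Ras and ERK cascade. In the tailbud, Fgf signalling is known to be strong and to fade towards the somites, and it keeps PSM cells immature until they reach the zone where the next somite boundary is set. Fgf4 and Fgf8 are the ligands known to act together in this role, Fgf17 belongs to the Fgf8 subfamily, Fgf3 acts in tail and inner ear development, and Fgf15, the mouse counterpart of human FGF19, acts as a hormone of bile acid control in the adult.

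The labels do not say which part lies at the caudal end. The mean of 6 caudal progenitor markers, among them Cdx2, Cyp26a1 and Wnt3a, was 8.95 in part 1 and 4.81 in part 7 on the log2(signal + 16) scale, and that of 5 somite markers, among them Meox1 and Uncx, was 5.85 and 10.41. Part 1 therefore had the tailbud markers and part 7 the somite markers. The deposited values are MAS5 signals, a brightness on a linear scale, with array means of 151 to 153.8. On the log2(signal + 16) scale used for all tests a signal of 0 becomes 4 and the fold changes of dim probe sets are understated. A piece with fewer cells of a type and a piece with less RNA per cell cannot be told apart in such bulk samples.

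Fgf3, Fgf4 and Fgf15 lie close together on mouse chromosome 7 in the RefSeq gene order of GRCm38.p6. Fgf4 is the next gene after Fgf3, and Fgf4 and Fgf15 have only the noncoding gene Gm26793 listed between them. Fgf8 is on chromosome 19 and Fgf17 on chromosome 14. The 250 bases before the start of Fgf3 (chr7:144838362-144838611, plus strand) and of Fgf4 (chr7:144861136-144861385, plus strand), from RefSeq on GRCm38.p6, are shown. The promoter set used had no window for Fgf8, Fgf15 or Fgf17. Capitals mark a match to CTTTGA, a core of TCF/LEF sites, on the opposite strand.
Fgf3: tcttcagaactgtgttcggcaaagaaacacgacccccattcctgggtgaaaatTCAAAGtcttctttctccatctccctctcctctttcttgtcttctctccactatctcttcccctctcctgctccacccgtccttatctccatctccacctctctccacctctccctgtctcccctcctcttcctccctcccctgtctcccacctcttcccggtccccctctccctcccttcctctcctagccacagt
Fgf4: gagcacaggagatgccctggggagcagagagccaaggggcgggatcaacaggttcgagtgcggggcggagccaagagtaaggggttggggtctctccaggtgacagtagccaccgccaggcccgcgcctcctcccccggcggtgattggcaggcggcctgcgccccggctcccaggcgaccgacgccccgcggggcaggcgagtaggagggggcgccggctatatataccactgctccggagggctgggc
The Fgf3 window is 55.2% G or C and the Fgf4 window 71.2%. The Fgf3 window holds the CTTTGA match, as do 13.8% of 32851 promoter windows of this length, and no match to CTTTGT (16.5% of windows), AGGTGT (11.8%), TTTATG (10.8%), TTTATT (18.1%) or AGGTCA (14%), searched on both strands. The Fgf4 window holds none of these 6 words. Such a match is a string of letters and not a measured binding site.

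All 5 ligands were highest in part 1 and fell along the PSM. Of the 5, all passed the filter on low signal (a signal of 13.3, the median of the table, in at least 3 arrays), which Fgf4 and Fgf8 passed through parts 1 to 3 alone. The limma F test over the 7 parts called 5 of 5 ligands at an adjusted p under 0.05, against 13.4% of the 12143 genes tested, and 4 of 5 without the arrays of replicate 2. The slope with part number was called negative for 5 of 5, against 11.1% of all genes that fell and 8.09% that rose. The median ligand slope was that of Fgf17, -0.61 log2 units per part, and the median over all genes was -0.00. Since these genes were picked as caudal ligands with results of these arrays known, the direction shared by all 5 is a description and not independent evidence.

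**Figure D1:**
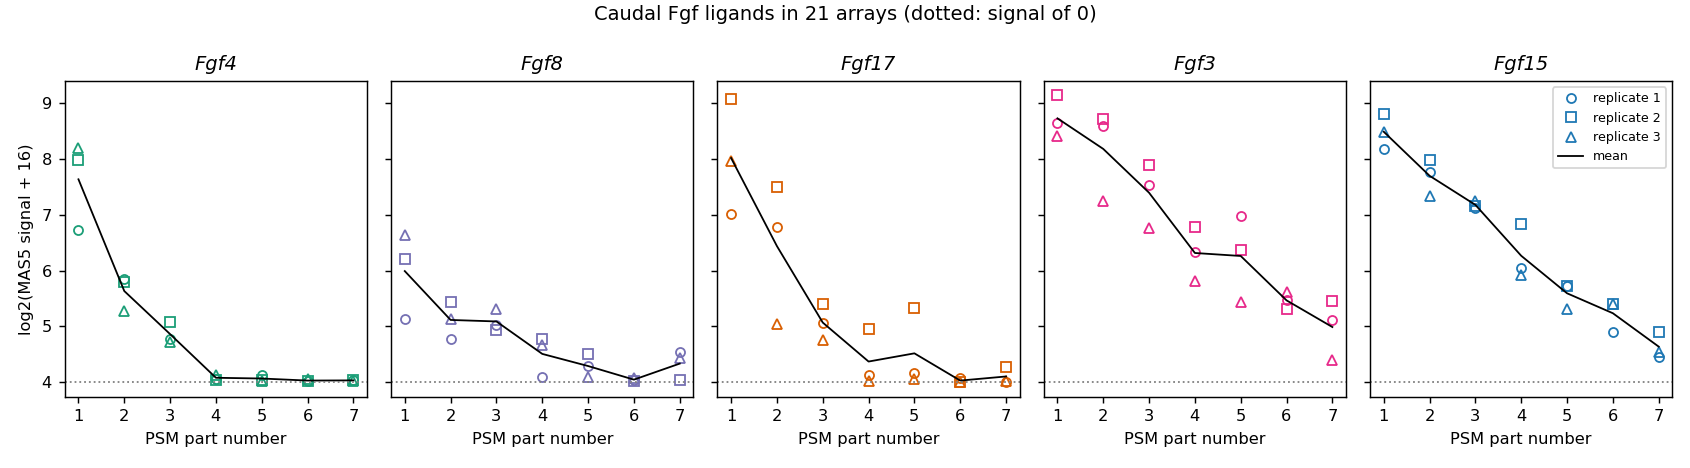
Log2(MAS5 signal + 16) of each ligand (1 panel each) against PSM part number, with 1 symbol per array, shaped by replicate number, and a line through the part means. Fgf4, Fgf8 and Fgf17 come down to about 4, the value of a signal of 0, while Fgf3 and Fgf15 fall more evenly over the 7 parts.

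Fgf4, the ligand that with Fgf8 holds the caudal PSM unsegmented, had the largest single drop between neighbouring parts. Its signal was 90.5, 234 and 275 in the 3 arrays of part 1, 41.2, 39.4 and 22.7 in part 2, and 11.5, 17.8 and 10.5 in part 3. From part 4 on it lay between 0.188 and 1.59 in all 12 arrays. Each of parts 1, 2 and 3 lay above the next with no overlap of arrays, and parts 4 to 7 were at the floor of the scale, where the order of values carries no meaning. The step from part 1 to part 2 fell by 1.99 ± 0.25 log2 units (SE), or 3.98-fold, with an adjusted p of 0.000667 in limma. It was the only step between neighbouring parts called for any ligand, and it ended as a call when all arrays of replicate 2 or of replicate 3 were left out. Against part 7, Fgf4 was higher in part 1 by 3.59 ± 0.25 (adjusted p = 9.62e-09) and in part 2 by 1.60 ± 0.25 (adjusted p = 0.000278). In part 3 the difference of 0.83 ± 0.25 missed the threshold (adjusted p = 0.0678) and passed it when array 1 or array 3 of part 1 was left out. The last part above part 7 was thus part 2, or part 3 without either of those arrays.

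Fgf17, a member of the Fgf8 subfamily, was spread most widely between arrays. Part 1 held signals of 113, 521 and 231, part 2 held 92.9, 166 and 17, and part 3 held 17.4, 26.3 and 11. In parts 4 and 5 replicate 2 stood at 14.9 and 24.3 while replicates 1 and 3 were at 0.336 to 1.99, and in parts 6 and 7 no array exceeded 3.41. Neighbouring parts overlapped at every step for this ligand, and parts 1, 2 and 3 lay wholly above part 7. The difference from part 7 was 3.90 ± 0.51 in part 1 (adjusted p = 2.35e-05) and 2.33 ± 0.51 in part 2 (adjusted p = 0.00561), and in part 3 it was 0.97 ± 0.51 (adjusted p = 0.396). The last part above part 7 was part 2, or part 1 without the arrays of replicate 1.

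Fgf8, the ligand whose graded mRNA in the tailbud is best known, was dim on this array. Its single probe set read 19.3, 57.4 and 82.9 in part 1, 11.4, 27.4 and 19 in part 2, 16.4, 14.5 and 23.9 in part 3, and 0.981, 11.2 and 9.44 in part 4. The arrays of parts 5, 6 and 7 gave 0.347 to 7.23. Part 1 overlapped part 2, and parts 1, 2 and 3 each lay above all arrays of part 7. Only in part 1 was the difference from part 7 called, at 1.65 ± 0.28 (adjusted p = 0.000446), a 3.15-fold difference on a scale that compresses signals this low. Parts 2 and 3 exceeded part 7 by 0.78 ± 0.28 (adjusted p = 0.117) and 0.75 ± 0.28 (adjusted p = 0.163). Without array 1 of part 1 the last part called was part 3, without the arrays of replicate 1 it was part 2, and without the arrays of replicate 2 no part was called.

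Fgf3, which acts in tail outgrowth, reached further. Its signals were 381, 544 and 322 in part 1, 367, 399 and 135 in part 2, 168, 221 and 92.1 in part 3, and 65.1, 94.2 and 40.7 in part 4. They were 110, 66.5 and 27.5 in part 5, 28.6, 23.7 and 32.9 in part 6, and 18.6, 28 and 5.1 in part 7. Every neighbouring pair of parts overlapped, yet each of parts 1 to 4 lay wholly above part 7. The difference from part 7 was 3.73 ± 0.41 in part 1 (adjusted p = 3e-06), 3.18 ± 0.41 in part 2 (adjusted p = 2.92e-05) and 2.40 ± 0.41 in part 3 (adjusted p = 0.000849). In parts 4 and 5 it was 1.33 ± 0.41 and 1.27 ± 0.41, with adjusted p values of 0.0866 and 0.13. The last part called was part 3. It became part 4 without array 3 of part 2, part 5 without the arrays of replicate 3, and part 2 without those of replicate 1.

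Fgf15, known in the embryo from the neural tube and tailbud, fell at a near even rate. In the fit used here, though not in every setting given below, it was called furthest along. The signal was 272, 429 and 337 in part 1, 200, 236 and 146 in part 2, 123, 126 and 136 in part 3, and 49.8, 97.4 and 44.8 in part 4. It was 37.2, 37 and 24 in part 5, 13.9, 26.3 and 26.5 in part 6, and 5.99, 14 and 7.47 in part 7. From part 1 to part 5 no part shared its range with the next, a stepwise order that none of the other 4 ligands showed over so many parts. Fgf4 showed it from part 1 to part 4 and lay at the floor from there on, where no further step could be seen. The slope was -0.64 ± 0.03 log2 units per part (adjusted p = 1.57e-12 in limma), and the level was 14.3-fold higher in part 1 than in part 7. Part 4 exceeded part 7 by 1.62 ± 0.24 (adjusted p = 0.000241), and part 5 by 0.95 ± 0.24 (adjusted p = 0.0373). The call in part 5 was lost, leaving part 4 as the last part, when array 1 or 2 of part 5 or array 1 or 3 of part 7 was left out, and also without the arrays of any 1 replicate number.

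Counted part by part, the number of ligands above part 7 went down in steps. It was 5 of 5 in part 1, where 7.3% of all genes were called higher than in part 7, and 4 of 5 in part 2 (4.17% of genes), with Fgf8 missing. In part 3 it was 2 of 5, Fgf3 and Fgf15 (2.72% of genes), with 4 of 5 when array 1 of part 1 was left out and 1 of 5 without the arrays of replicate 1. In part 4 it was 1 of 5, Fgf15 (1.8%), or 2 of 5 without array 3 of part 2. In part 5 it was 1 of 5 (0.791%), or 0 of 5 without any 1 of the 4 arrays of parts 5 and 7 named for Fgf15, and in part 6 it was 0 of 5 (0%). At an unadjusted p under 0.05 in limma, 1 ligand, Fgf15, was higher in part 6 than in part 7, among 246 of the 12143 genes tested. Its adjusted p there was 0.954, and its arrays of parts 6 and 7 overlapped.

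**Figure D2:**
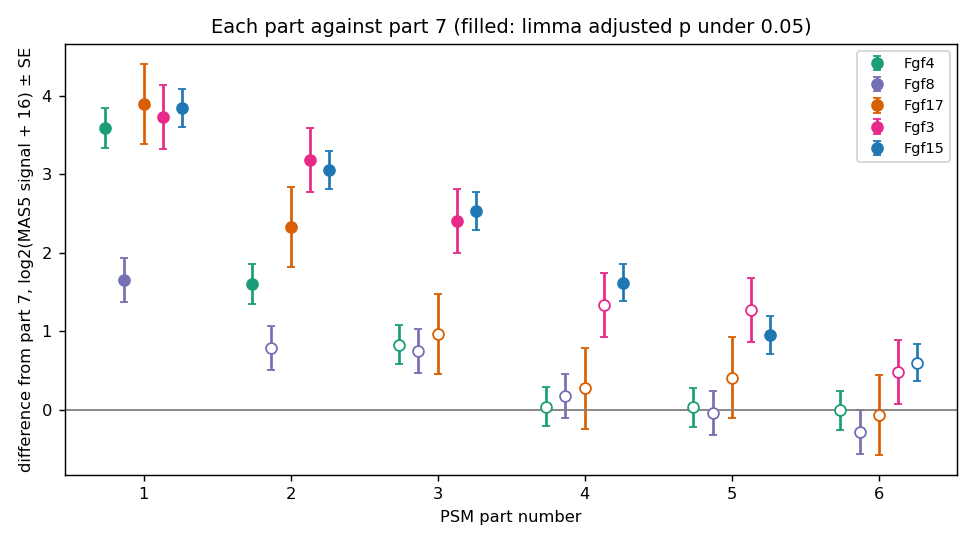
Difference of each of parts 1 to 6 from part 7 for the 5 ligands, in log2(MAS5 signal + 16) with the SE of the limma fit as bars, filled where the adjusted p was under 0.05. Filled symbols fall from 5 in part 1 to 4, 2, 1, 1 and 0 in parts 2 to 6.

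Single steps between neighbouring parts were mostly too small for this design. From part 1 to part 2 all 5 means fell and 1 ligand was called, Fgf4, against 0.486% of genes called lower; 2 were called without array 1 of part 1 and 0 without the arrays of replicate 2 or of replicate 3. From part 2 to part 3 the call count was 0 of 5 (0% of genes), and 3 ligands, Fgf4, Fgf15 and Fgf17, passed at an unadjusted p under 0.05 in limma. From part 3 to part 4 it was 0 of 5 (0.00824% of genes), with Fgf3, Fgf4 and Fgf15 passing unadjusted. The later steps gave 0 of 5 each, against 0.0576% of genes from part 4 to part 5, 0.107% from part 5 to part 6 and 0% from part 6 to part 7. In these steps 1, 0 and 1 ligands passed unadjusted, Fgf15 each time. Over all 12143 genes the numbers lower at an unadjusted p under 0.05 were 726, 217, 375, 385, 344 and 246 for the 6 steps in order.

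To set the ligands side by side without comparing the brightness of different probe sets, each was scaled to its own span, from its highest part mean to its part 7 mean. The midpoint of that span was crossed at part 1.90 by Fgf4, 1.95 by Fgf8 and 2.28 by Fgf17, and at part 3.50 by Fgf3 and 3.67 by Fgf15. Taking each replicate number by itself, the positions ranged over 1.71 to 2.43 for Fgf4, 1.73 to 2.63 for Fgf8 and 1.67 to 2.74 for Fgf17. They ranged over 3.38 to 3.55 for Fgf3 and 3.56 to 3.91 for Fgf15. Within the first 3 ligands and within the last 2 the order is not resolved, or rests on a narrow gap, while the 2 sets do not overlap. In part 3 Fgf3 and Fgf15 kept 64.3% and 66% of their span, and Fgf4 and Fgf17 kept 23% and 24.8%. Fgf8 kept 45.6% there, a value from a span of 1.65 log2 units against 3.59 to 3.90 in the others. Fgf4, Fgf8 and Fgf17 came before Fgf3 and Fgf15 in all 6 pairings under each of 8 other settings, among them pseudocounts of 1 and 64, the linear scale and each replicate number left out. The midpoint of Fgf8 moved to part 2.96 without replicate 3. This position is a description with no test, and its value depends on the scale: on linear signal Fgf15 crossed at part 2.25 and Fgf3 at 2.60, and with a pseudocount of 1 Fgf4 crossed at part 2.85, Fgf8 at 3.27 and Fgf17 at 2.88.

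**Figure D3:**
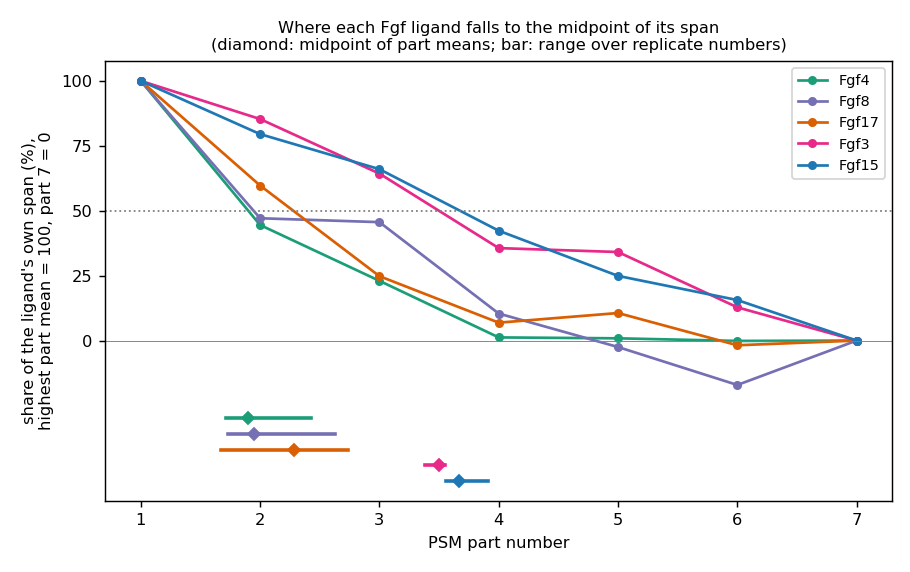
Part means of each ligand as a percentage of its own span on the log2(MAS5 signal + 16) scale, against part number, with diamonds for the part at which the midpoint is crossed and bars for the range over the 3 replicate numbers. The bars of Fgf4, Fgf8 and Fgf17 lie below part 2.74 and those of Fgf3 and Fgf15 above part 3.38.

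The slopes of the ligands were compared over the 10 pairs, taking the slope of the log2 difference between 2 ligands in the same array against that under permuted part labels (100000 permutations, two-sided). The 4 pairs that passed all held Fgf8. Fgf3 minus Fgf8 was -0.35 ± 0.07 (permutation p = 0.0001, adjusted over the pairs 0.0005) and Fgf4 minus Fgf8 was -0.25 ± 0.06 (permutation p = 0.00038, adjusted 0.00117). Fgf8 minus Fgf15 was 0.36 ± 0.04 (permutation p = 1e-05, the smallest that these permutations can give, adjusted 0.0001), and Fgf8 minus Fgf17 was 0.33 ± 0.08 (permutation p = 0.00047, adjusted 0.00117). The Fgf8 probe set is dim, and the added 16 leaves it a span of only 1.65 log2 units. With a pseudocount of 1 the slopes were -0.71 for Fgf8, -0.79 for Fgf3 and -0.84 for Fgf15, and neither of the pairs of Fgf8 with Fgf3 and Fgf15 was called, so no shallower fall of Fgf8 mRNA is read from them. On that scale Fgf4 and Fgf17 had slopes of -1.19 and -1.22, steeper than Fgf3 and Fgf15, and their pairs with Fgf8 stayed called. No order of the 5 slopes can be given. In other settings, the pair of Fgf4 and Fgf8 was not called with each gene's probe sets averaged. That of Fgf3 and Fgf8 was not called without parts 6 and 7, and that of Fgf8 and Fgf17 not without replicate 1. Fgf3 and Fgf15 had a difference of 0.01 ± 0.05 in slope (permutation p = 0.834), and the other 5 pairs did not pass at differences of -0.11 to 0.12.

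In the middle of the PSM, chosen after the profiles had been seen, the ligands are described by their change from the mean of parts 6 and 7 to that of parts 4 and 5. It was 1.06 log2 units for Fgf3, 0.99 for Fgf15, 0.38 for Fgf17, 0.21 for Fgf8 and 0.04 for Fgf4. Fgf4 was at the floor of the scale in all of these parts, so a change of its mRNA there would not be seen. For that reason no test between the ligands is read from these parts.

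Fgf3, Fgf4 and Fgf17 had more than 1 probe set, 11 being available for the 5 genes, and the others were a check. The Fgf3 probe set used, 1441350_at, was joined by 1441914_x_at with a slope of -0.59 and 1422923_at with -0.39, and both of those were above part 7 up to part 5. By these probe sets Fgf3 reached as far as Fgf15. For Fgf4, 1420086_x_at gave a slope of -0.52 and an end at part 3, and 1449729_at, which was dimmer, gave -0.27 and an end at part 1. The fourth Fgf4 probe set, 1450282_at, was flat at 4.63 to 4.96 in every part, with a slope of -0.03 ± 0.02 (adjusted p = 0.523 over the 22064 probe sets tested), and did not follow the other 3. Those 3 are annotated to the same source sequence, and 1450282_at to another, a RefSeq mRNA. The 3 that fell are therefore not independent checks of each other. For Fgf17, 1421523_at gave -0.33 and the same end at part 2 as the brighter 1456239_at. Fgf8 and Fgf15 had 1 probe set each, so their profiles have no such check.

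**Figure D4:**
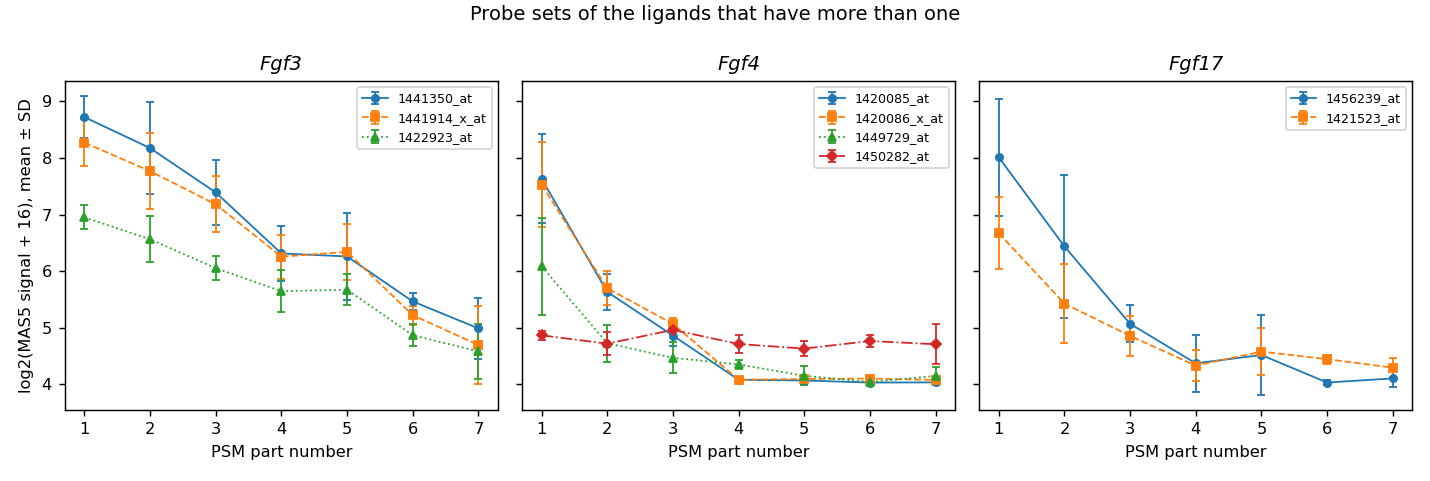
Mean ± SD over 3 arrays of log2(MAS5 signal + 16) for every probe set of Fgf3, Fgf4 and Fgf17, against part number. All fall with the part number except 1450282_at of Fgf4, which stays between 4.63 and 4.96.

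The arrays of part 1 and part 2 differed among themselves in a way that touched several ligands. Replicate 1 was the lowest array of part 1 for Fgf4, Fgf8, Fgf15 and Fgf17, and replicate 3 the lowest of part 2 for Fgf3, Fgf4, Fgf15 and Fgf17. The mean of the 6 caudal progenitor markers was 8.11 in replicate 1 of part 1 and 9.29 and 9.43 in replicates 2 and 3. The 4 blood markers measured had a mean of 11.39 in that array against 9.67 and 10.46, the highest of all 21 arrays. In replicate 3 of part 2 the 5 endothelial markers had a mean of 6.22 against 5.39 and 4.24 in the other arrays of that part, and the 4 lateral and intermediate mesoderm markers measured 5.58 against 4.69 and 4.44. Caudal progenitor markers were also spread widely between the arrays of part 5. There Cyp26a1 was 5.66 ± 1.79 (SD, n = 3), Nkx1-2 5.68 ± 1.75, Cdx2 5.24 ± 1.17, Cdx4 5.52 ± 1.13 and Evx1 5.04 ± 0.99, while Wnt3a was 4.62 ± 0.25. The part of these differences in the ligand values was not tested.

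Markers of tissues around the PSM were measured at different levels. Means over 6 neural tube markers lay between 4.28 and 4.99 in all 21 arrays, with Sox1 under the filter, and 1 of the 5 tested, Olig2, rose. Surface ectoderm markers (7, with Trp63 under the filter) had means of 4.48 to 5.59, highest in replicate 3 of part 1. Of 6 tested, 2 had a called negative slope, Krt8 and Grhl3. Krt8 was 6.87 ± 0.34 (SD, n = 3) in part 1, 4.64 ± 0.48 in part 6 and 5.52 ± 1.01 in part 7. Grhl3 was highest in part 3, at 5.31 ± 0.12 (SD, n = 3), unlike the ligands. Gut endoderm markers (6) had means of 4.54 to 5.29, notochord markers (3 measured) 4.55 to 5.10 and neural crest markers (3) 4.37 to 4.78, with no slope called in these lists. Sox17 of the endoderm list still reached 7.17 ± 0.49 (SD, n = 3) in part 3. The limma F test over parts called Cldn6 of that list (adjusted p = 0.0405), at 5.27 ± 0.63 (SD, n = 3) in part 1 and 4.26 ± 0.18 in part 2. Endothelial markers (5) had means of 4.24 to 6.22, with Kdr at 7.54 ± 0.44 (SD, n = 3) in part 3, and lateral and intermediate mesoderm markers (4 measured) 4.42 to 5.58, with Osr1 at 6.56 ± 0.16 (SD, n = 3) in part 3. No slope was called in these 2 lists, while the limma F test over parts called Osr1 (adjusted p = 0.00803). Of the endoderm, notochord and neural crest markers, Foxa2, Trh, Chrd, Foxd3 and Tfap2b did not pass the filter. Nor did the endothelial Pecam1 or the lateral mesoderm markers Foxf1 and Hand1. Of the blood markers 3 of 4, Hba-x, Hbb-bh1 and Alas2, fell with part number, Alas2 narrowly (adjusted p = 0.0494 in limma). Over all genes tested 11.1% fell and 8.09% rose. The part of these tissues in the ligand slopes was not tested.

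Of 17 other Fgf ligands on the array, 5 passed the filter and 1 fell and 1 rose, where 11.1% of all genes tested fell and 8.09% rose. Fgf9 fell with a slope of -0.42 ± 0.08 (adjusted p = 0.000639) but was highest in part 3, at 9.20 ± 0.17 (SD, n = 3), and Fgf18 rose by 0.93 ± 0.12 per part to a maximum of 9.70 ± 0.34 (SD, n = 3) in part 5. Fgf1, Fgf13 and Fgf14 had no called slope, while the limma F test over parts called Fgf13 (adjusted p = 0.0275). Fgf9 and Fgf18 thus did not have their highest mean in part 1, where all 5 caudal ligands had theirs.

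No Fgf receptor was called as falling with the ligands. Among 16 tested receptors, co-receptors and heparan sulphate enzymes, 5 fell, 3 rose and 8 were not called (11.1% and 8.09% of all genes fell and rose), with a median slope of -0.05. The receptor Fgfr2 rose by 0.51 ± 0.05 per part (adjusted p = 1.75e-07) and Fgfr1, the main receptor of the PSM, by 0.23 ± 0.05 (adjusted p = 0.00168), with Hs6st1, a heparan sulphate sulphotransferase, at 0.16 ± 0.03. The 5 that fell did so by small amounts and act on the cell surface glycans that hold Fgf proteins: the glypicans Gpc4 (-0.17) and Gpc3 (-0.12), the syndecan Sdc3 (-0.14) and the chain-building enzymes Ext2 (-0.10) and Ext1 (-0.09). Fgfr3 and Fgfr4 were not called, at -0.05 and -0.04. Of 10 ERK cascade genes tested, Ptpn11, a phosphatase that relays receptor signals, fell (-0.08), Nras rose (0.06) and 8 were not called, counts close to the 11.1% and 8.09% of all genes.

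Targets and feedback genes of the pathway fell in part. Of 21 tested, 9 fell, 1 rose and 11 were not called (against 11.1% and 8.09% of all genes), with a median slope of -0.10 log2 units per part against -0.61 for the ligands. Il17rd, a membrane inhibitor of Fgf signalling, had the steepest slope at -0.53 ± 0.06 (adjusted p = 4.98e-07). The feedback inhibitor Spry4 fell by 0.38 ± 0.07 log2 units per part, the ETS factor Etv5 had a slope of -0.36 ± 0.06 and the ERK phosphatase Dusp4 one of -0.32 ± 0.10. Spry1 rose by 0.19 ± 0.05. Dusp6, a common readout of the pathway, was not called at -0.10 ± 0.05 (adjusted p = 0.237). Measured like the ligands, the midpoint of the span was crossed at part 2.12 by Dusp4, 3.53 by Etv5, 3.57 by Etv4, 3.96 by Spry4, 4.02 by Snai1, 4.03 by Il17rd, 4.17 by Dusp14, 4.36 by Spry2 and 4.92 by Spred2. Of these 9 only Dusp4 crossed it where Fgf4, Fgf8 and Fgf17 did, and Etv4 and Etv5 did so near Fgf3 and Fgf15. No range over replicate numbers was taken for these genes, and some spans were small, 0.70 log2 units for Dusp14 and 0.89 for Etv4. The mean of Dusp4 was lower in part 4 (7.03 ± 1.18, SD, n = 3) than in part 7 (7.71 ± 0.51). That of Etv5 was lower in part 5 (5.94 ± 0.91) than in part 7 (6.47 ± 0.80). Their midpoints therefore do not mark an end. Spry4 was highest in part 2 and Spry2 in part 3. Genes of these signal lists were chosen with earlier results of the arrays known, and their counts support nothing beyond the values given.

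Known upstream factors of caudal Fgf expression mostly fell. Of 18 tested, 12 fell, 2 rose and 4 were not called, where 11.1% of all genes fell and 8.09% rose, with a median slope of -0.37. The caudal homeobox genes Cdx4 (-0.81 ± 0.06) and Cdx2 (-0.67 ± 0.08), the retinoic acid degrading enzyme Cyp26a1 (-0.75 ± 0.15) and the T-box gene Tbx6 (-0.69 ± 0.08) had the steepest falls. The retinoic acid synthesis enzyme Aldh1a2 rose by 0.98 ± 0.07 per part and its target Rarb by 0.13 ± 0.02. Midpoints were crossed at part 1.55 by Nkx1-2, 1.72 by Cyp26a1, 2.11 by Wnt3a, 2.12 by Wnt5b, 2.25 by Sp8 and 2.35 by Cdx2, around the positions of Fgf4, Fgf8 and Fgf17. They were crossed at part 3.13 by Cdx4, 3.34 by Sp5 and 3.40 by Msgn1, nearer to Fgf3 and Fgf15, and at 4.03 by Rarg, 5.16 by Wnt5a and 5.20 by Tbx6, beyond all 5 ligands. As for the targets, no range over replicate numbers was taken for these positions, and some means dipped under that of part 7. Sp5 was 5.26 ± 0.36 (SD, n = 3) in part 5 and 5.89 ± 0.62 in part 7. In part 6 Wnt5b was 6.01 ± 0.30 and Cyp26a1 4.26 ± 0.15, against 6.59 ± 0.56 and 5.12 ± 0.08 in part 7. The midpoints of these genes therefore do not mark an end.

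**Figure D5:**
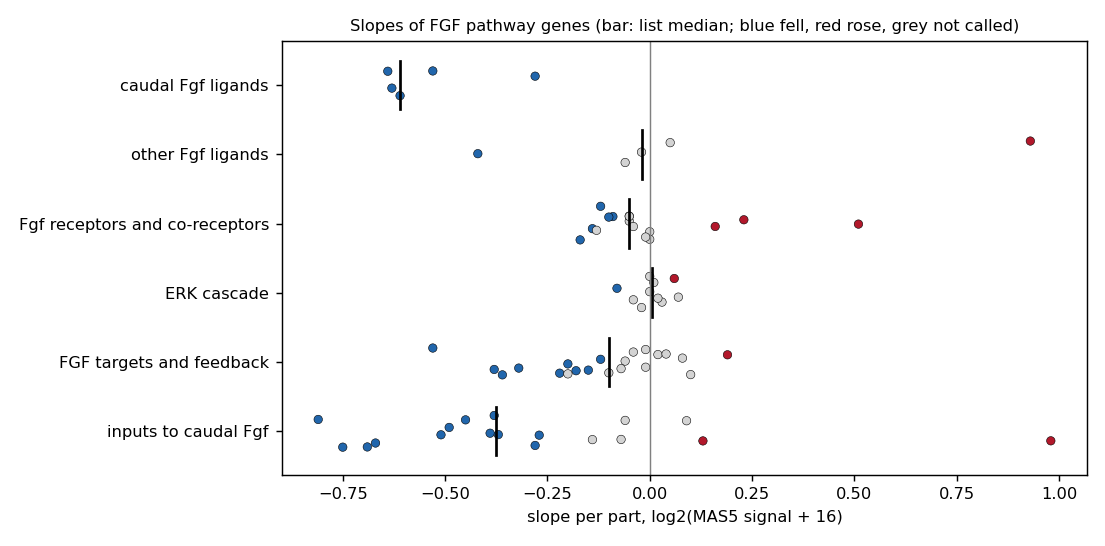
Slope with part number in log2(MAS5 signal + 16) for each tested gene of 6 lists (1 point per gene, spread vertically for legibility), with a bar at the list median, blue for called falls, red for called rises and grey for genes not called. The ligands lie between -0.64 and -0.28, while the ERK cascade genes lie between -0.08 and 0.07.

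The genes most like each ligand over the 21 arrays, are given by Pearson's r on the log2 scale, as a description with no test. Since all of these genes fall with part number, a high r follows from the shared trend as well as from the shared arrays. For Fgf4 they were Mixl1, a homeobox gene of the primitive streak (r = 0.965), Wnt3a (0.961), Smim10l2a (0.95), the antisense transcript Evx1os (0.949) and the membrane fusion protein gene Stx3 (0.949). For Fgf17 they were Evx1os (0.964), Uap1l1 (0.956), Wnt3a (0.955), the centromere protein gene Cenpw (0.946) and Adamtsl2 (0.945). Fgf4 and Fgf17 thus shared Wnt3a and Evx1os, and had an r of 0.938 with each other. For Fgf8 they were Smim10l2a (0.931), the glucose transporter gene Slc2a3 (0.924), Rnf128 (0.921), the amino acid transporter gene Slc7a7 (0.918) and Dmgdh (0.905).

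For Fgf3 the gene most like it of all those tested was Fgf15 (r = 0.954), followed by the Hoxa11 antisense transcript Hoxa11os (0.945), Selenbp1 (0.94), the protease gene Klk8 (0.939) and the tropomyosin gene Tpm1 (0.938). For Fgf15 they were the G protein subunit gene Gnal (0.974), Antxr1 (0.97), Hoxa11os (0.969), the matrix protein gene Adamtsl2 (0.958) and the small GTPase gene Rap2c (0.956). Fgf3 and Fgf4, neighbours on the chromosome, had an r of 0.827, and Fgf3 and Fgf8 had the lowest of the 10 pairs at 0.766.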

How the data were processed

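Total RNA of 21 pieces of PSM was amplified in 2 rounds and hybridised to Affymetrix arrays, per the labels' protocols. The deposited values are linear signal intensities per probe set, which the authors computed with MAS5 according to the submitters' processing notes. No source used here gives its version or scaling target. MAS5 brings array means to 1 level, so a change shared by most genes is not seen, and it is noisy at low signal. Arrays have no depth, and their number limits the precision.

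Samples were grouped by title. Of 45101 probe sets, 64 controls, 9160 without a symbol and 932 with several were left out, and the highest-mean probe set stood for each gene. Genes at or above 13.3 in at least 3 arrays (12143) were tested on log2(signal + 16) with limma 3.58.1 (R 4.3.3). The fit had a mean-variance trend and no block, and p-values were adjusted over all genes by Benjamini-Hochberg at a threshold of 0.05. The scripts were tested on simulated data. The text names all 5 ligands, the 5 genes most like each by Pearson's r, up to 4 called genes by absolute slope per list or all behind a count of 5 or fewer, and landmarks. Etv4, Spry2, Dusp6, the single markers Sox17, Kdr, Osr1, Cldn6 and Krt8, the progenitor markers given for part 5, the uncalled genes and the further target and upstream genes given for their midpoints were named after their values were seen. The members and gene lists were chosen with earlier results of these data known. Alternatives were other pseudocounts, filters, normalizations, probe set rules, weights, blocks and arrays left out.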

Additional observations from a re-analysis of the deposited data

How the results depend on the processing

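The negative slope held for all ligands tested under every alternative run, 179 of 179 being called and negative with adjusted p values up to 0.0104. The F test called 4 of 5 ligands without replicate 2. Fgf8 was not tested with a filter at the 75th percentile. Where each ligand ends moved more, and the cause was not tested.

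With a pseudocount of 1, 2 ligands were higher in part 4 than in part 7 and 1 was lower in part 4 than in part 3, the last part was 4 for Fgf3 and 3 for Fgf4, and the midpoints were 3.76 for Fgf3, 2.85 for Fgf4, 3.27 for Fgf8, 4.11 for Fgf15 and 2.88 for Fgf17. The slope differences were then 0.41 for Fgf3 minus Fgf4, 0.43 for Fgf3 minus Fgf17, -0.35 for Fgf4 minus Fgf15 and 0.37 for Fgf15 minus Fgf17. All of these were of the opposite sign and were called, with adjusted permutation p values of 0.0169 to 0.0355. The differences of -0.08 for Fgf3 minus Fgf8 and 0.14 for Fgf8 minus Fgf15 were no longer called. With a pseudocount of 64, 0 ligands were higher in part 5 and 2 lower in part 2 than in part 1, the last part of Fgf15 was 4, the midpoints were 3.21 for Fgf3 and 3.26 for Fgf15, and Fgf3 minus Fgf4 at -0.17 and Fgf4 minus Fgf15 at 0.15 were called. Without a filter, 0 ligands were higher in part 5 and the last part of Fgf15 was 4; with the filter at the 75th percentile 590 genes were higher in part 1 than in part 7, against 887. With array weights, 2 ligands were higher in part 4, and the last part was 4 for Fgf3 and 3 for Fgf4. With all probe sets of each gene averaged, 2 ligands were higher in part 4 and 2 in part 5, Fgf3 ended at part 5 with a midpoint of 3.63, and the differences were -0.20 for Fgf3 minus Fgf4, 0.10 for Fgf3 minus Fgf15, 0.31 for Fgf4 minus Fgf15, 0.14 for Fgf4 minus Fgf17 and -0.17 for Fgf15 minus Fgf17, all called, with Fgf4 minus Fgf8 at -0.05 not called. With only the 2 parts compared in the fit, 4 ligands were higher in part 3, 0 in part 5 and 0 lower in part 2, and the last part was 3 for Fgf4, 4 for Fgf15 and 3 for Fgf17.

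Of 63 array pairs with the same replicate number, 55 had correlated deviations above 0.1 (lowest 0.0375), against 29 of 126 pairs with different numbers. The median r was 0.307 against -0.234, and 18 of 21 arrays were closest to their own number. Arrays of the same number thus shared deviations. The numbers were not taken as pairs, since no label ties them to an embryo, so the main calls leave this out. With the replicate block as a fixed term, 2 ligands were higher in part 4 and 2 in part 5, 3 were lower in part 2 and 1 in part 4 than in the part before, the last part was 5 for Fgf3 and 3 for Fgf4, and 3030 genes were called by the F test and 1493 higher in part 1, against 1633 and 887. With a random replicate block the counts were 2, 2 and 3 ligands, the last parts 5 and 3, and 2723 and 1392 genes.

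When 1 replicate number or 1 array was left out, the count of ligands was 1 to 4 in part 3, 1 to 2 in part 4, 0 to 1 in part 5, and 0 to 2 for the step to part 2. The last part was 2 to 5 for Fgf3, 2 to 3 for Fgf4, 0 to 3 for Fgf8, 4 to 5 for Fgf15 and 1 to 2 for Fgf17, the midpoint of Fgf8 was 1.75 to 2.96, and Fgf8 minus Fgf17 was 0.28 to 0.41. Over all genes, 611 to 1725 were called by the F test, 1374 to 2320 by the slope, and 378 to 932 were higher in part 1 than in part 7. Added after seeing the data, Fgf3 minus Fgf8 without parts 6 and 7 was -0.28 and not called. An exact permutation test between ligands of the change from parts 6 and 7 to parts 4 and 5, also added then, called 2 pairs. Both were with Fgf4, which was at its floor there. The test called 0 pairs with a pseudocount of 1, 5 with one of 64, 6 with probe sets averaged and 0 without any 1 replicate number. With a replicate number left out, 8 arrays remained, and the smallest p this exact test can give was 0.0286 before adjustment over the pairs. Those 0 calls were thus close to fixed in advance. On the linear scale, also added after seeing the data, the midpoints were 2.60 for Fgf3, 2.25 for Fgf15 and 1.73 for Fgf17. Fgf4, Fgf8 and Fgf17 are at the floor of the signal in the late parts, which limits what their ends can show.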
